A study of Homo sapiens with 32 samples.

Results

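A clone of the human colorectal cancer line HCT116 that carries the E7 deletion and 4 control clones of the line were each sampled for RNA on 3 labelled extraction days, A, B and C. They were chosen from the labels alone: the 3 RNA-seq libraries of the E7 clone and the 12 of control clones 1 to 4, 15 of the 32 samples of the series. The series asked how deletion of distal regulatory elements, marked by acetylated histone H3 lysine 27, alters the transcriptome. Control clones had received an empty guide RNA vector together with Cas9-GFP, and the E7 clone had received guides against the distal element E7 together with Cas9-GFP. All clones passed through the same sort for high GFP and the same single-cell expansion. All were grown to 80% confluence in DMEM with 10% fetal bovine serum, and no other treatment is labelled. The E7 deletion is represented by 1 clone, so its 3 libraries are repeat samples of that clone, and what belongs to the deletion and what belongs to the clone cannot be told apart. The labels give no calendar date, cell density or passage for a day, and "day" here means the labelled day of RNA extraction only.

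The question was whether the difference between day A and days B and C, the day response, was kept, lost or gained in the E7 clone. Cells that move between active growth and a crowded or starved state alter several well known programmes together. Growing cells keep up MYC-driven ribosome assembly, DNA replication and mitotic transcripts. Immediate early genes such as EGR1 respond within minutes to growth factor signals through the MAP kinase cascade and serum response factor, p53 switches on brakes of the cell cycle such as CDKN1A, SREBP factors control sterol and fatty acid enzymes, and the unfolded protein response raises chaperones of the endoplasmic reticulum. The lists used below follow these programmes. Whether the labelled days differ in growth state was not tested.

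Gene counts per library lay between 9871667 and 14862268 (median 12902421), and between 7.78% and 14.3% of the reads in a library fell outside annotated genes, the highest share and the lowest depth being in the day C library of control clone 1. Of 20 colorectal identity genes in the files, 11 averaged at least 1 CPM (read count scaled to the library's size), and TFF1 and TFF3 were at 0 in all 15 libraries. The summed level of that list was 3975 to 4760 CPM in the controls on day A, 4871 to 6590 CPM in the controls on days B and C, and 4460, 6089 and 6217 CPM in the E7 clone on days A, B and C. The keratin genes KRT8, KRT18 and KRT19 made up most of that sum, and some other members of the list differed in level between the arms. ANXA10 was at 66.9 to 97.5 CPM in the controls and at 0.266 to 0.858 CPM in the E7 clone, and the transcription factor gene HNF4A at 4.43 to 14.6 CPM and 0.0895 to 0.357 CPM. The E-cadherin gene CDH1 was also lower in the E7 clone, at 45.6 to 52.9 CPM beside 53.5 to 110 CPM, and SOX9 was higher, at 171 to 225 CPM beside 31.0 to 114 CPM, with no overlap in any of these 4 genes. Other members were nearer in mean level: EPCAM was at 341 CPM in the controls and 292 CPM in the E7 clone, and EPHB2 at 36.2 and 41.6 CPM. How many of all genes tested lay apart between the arms was not counted. Leukocyte markers summed to at most 5.48 CPM in any library, with CD3D, FCGR3A and HBB at 0. Fibroblast markers summed to 12.6 to 29.7 CPM, with DCN, POSTN, LUM and COL1A2 at 0, and endothelial markers to 4.92 to 10.4 CPM. Genes listed as HEK293 markers summed to 620 to 1051 CPM, with SALL1 and NEFM at 0, and neuronal markers to 23.2 to 97.8 CPM in the controls and 103 to 143 CPM in the E7 clone, with ELAVL4 and GAP43 at 0. In such bulk samples, fewer cells of a type and less RNA per cell cannot be told apart. The share of mitochondrially encoded mRNA was 5.24% to 6.60% in the controls on day A, 4.71% to 5.01% in the controls on days B and C and 3.64% to 4.32% in the E7 clone. The part of these shares in the day responses was not tested.

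To show the promoter elements of 4 programmes described below, 4 promoters are shown from RefSeq on GRCh38.p14 (the counts were made on another build), each as the 150 bases before an annotated transcript start, 5′ to 3′. They were chosen after the values were seen. Capitals mark CArG boxes, which serum response factor binds, in EGR1; the CCAAT and CCACG parts, 9 bases apart, of the ER stress response element in HSPA5; the cell cycle genes homology region TTTGAAA in KIF23; and the E-box CACGTG in ODC1.
EGR1 (chr5:138465329-138465478, plus strand): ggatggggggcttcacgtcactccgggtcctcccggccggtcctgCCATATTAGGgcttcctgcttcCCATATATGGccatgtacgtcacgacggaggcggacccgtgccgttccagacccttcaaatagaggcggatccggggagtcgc
HSPA5 (chr9:125241344-125241493, minus strand): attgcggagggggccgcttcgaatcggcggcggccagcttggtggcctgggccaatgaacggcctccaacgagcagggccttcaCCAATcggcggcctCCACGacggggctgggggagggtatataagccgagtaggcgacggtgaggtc
KIF23 (chr15:69414199-69414348, plus strand): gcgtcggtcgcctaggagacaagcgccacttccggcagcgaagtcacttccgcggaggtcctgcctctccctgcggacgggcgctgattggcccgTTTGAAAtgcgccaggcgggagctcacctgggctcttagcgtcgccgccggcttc
ODC1 (chr2:10448013-10448162, minus strand): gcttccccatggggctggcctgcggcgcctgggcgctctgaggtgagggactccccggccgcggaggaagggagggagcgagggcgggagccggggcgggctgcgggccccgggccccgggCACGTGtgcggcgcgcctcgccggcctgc
Both strands of windows from 250 bases before to 50 bases after each start were searched, and overlapping matches were counted once per window. CArG boxes stood in 3 of 25 windows of immediate early genes (EGR1, EGR2 and SRF) and in 1.29% of all 35116 windows. The ER stress response element stood in 9 of 29 windows of the unfolded protein response list and in 0.0769% of all windows. TTTGAAA stood in 14 of 47 windows of mitotic genes against 6.13% of all windows, and CACGTG in 19 of 50 windows of MYC targets against 7.26%. These are matches of letters, not sites shown to be bound.

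In the control clones a large share of the transcriptome differed between day A and days B and C. Of 15767 genes tested, 6391 (40.5%) passed an adjusted p of 0.05 in edgeR's quasi-likelihood test with Benjamini-Hochberg adjustment, 3405 of them higher on day A (21.6%) and 2986 lower (18.9%). By such counts days B and C were closer to each other, with 6 genes called between them in the controls (0.0381%). Still, 1957 genes (12.4%) had an unadjusted p under 0.05 there, against 7654 (48.5%) for day A. For a B minus C difference that differed between the arms, 0 genes were called and 379 (2.40%) had an unadjusted p under 0.05. For day A against days B and C in the E7 clone alone, the same test called 27 genes (0.171%), 25 higher (0.159%) and 2 lower (0.0127%), and 2534 genes (16.1%) had an unadjusted p under 0.05. The control count of 6391 and the E7 count of 27 are not comparable as sizes of response, because the control response rests on 4 clones and the E7 response on 1, whose spread is borrowed from the controls. Leaving out a control clone moved the E7 count from 3 genes (without clone 2) to 375 (without clone 1), with 148 without clone 3 and 43 without clone 4, and the control count to 3493 without clone 2.

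The E7 difference had the sign of the control response in most of these genes. Of the 3405 genes called higher in the controls, 92.5% also had a positive difference in the E7 clone, and of the 2986 called lower, 94.4% had a negative one, whereas over all genes tested the signs matched in 76.6%. The median fitted log2 change of the genes called higher was 0.52 in the controls and 0.36 in the E7 clone, and of those called lower −0.34 and −0.25. Since the controls chose these genes, the smaller E7 medians were set beside a control clone left out of the choice. When clone 1 was left out, 3753 genes were called higher by the other 3, with medians of 0.36 in clone 1 and 0.32 in the E7 clone. When clone 4 was left out, the medians of 3220 genes called higher were 0.28 in clone 4 and 0.35 in the E7 clone. Clones 2 and 3, left out in turn, had medians of 0.67 and 0.64 for genes called higher, against 0.43 and 0.38 in the E7 clone. Genes called lower behaved likewise, at −0.21, −0.50, −0.46 and −0.22 in clones 1 to 4 left out in turn, beside −0.25, −0.30, −0.27 and −0.25 in the E7 clone. The median E7 response was thus smaller than that of clones 2 and 3 and near that of clones 1 and 4.

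**Figure D1:**
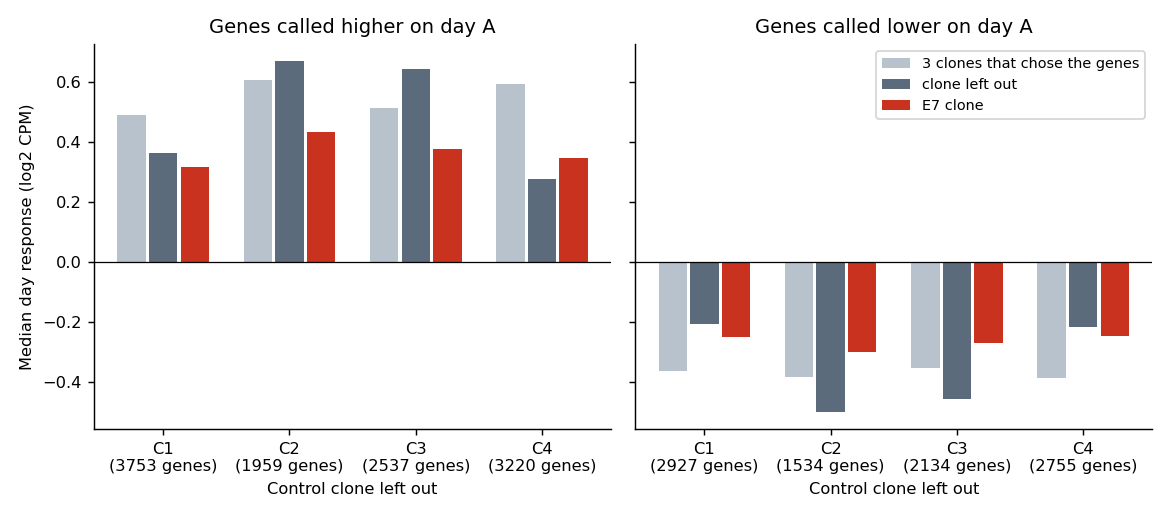
Median day response (log2 CPM, day A minus the mean of days B and C) of genes called higher (left) or lower (right) in the 3 control clones that remained when each control clone was left out. Bars show the 3 choosing clones, the clone left out and the E7 clone; for genes called higher, E7 lay between 0.32 and 0.43 and the clones left out between 0.28 and 0.67.

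Across the 7983 genes that averaged at least 20 CPM, the E7 differences correlated with those of control clones 1 to 4 at Pearson's r of 0.46, 0.82, 0.83 and 0.72, as a description across genes measured in the same libraries. Control clone 1 stood apart from the other controls, with r from 0.37 to 0.62, while clones 2, 3 and 4 correlated with one another at 0.77 to 0.90. Control clone 4 had the smallest spread of differences over these genes (SD 0.22), next to the E7 clone (0.24), and clones 1, 2 and 3 had SDs of 0.34, 0.36 and 0.39.

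No gene passed an adjusted p of 0.05 for a day response that differed between the E7 clone and the controls (lowest adjusted p 0.271, edgeR's quasi-likelihood test). At an unadjusted p under 0.05 there were 554 genes (3.51%), 268 with a more positive response in the E7 clone (1.70%) and 286 with a more negative one (1.81%). DESeq2 called 6 genes (0.0381%), namely TGM2, GDF15, HES1, BTG2 and IL18 with a more negative E7 response and TAGLN with a more positive one. Without a filter on low counts edgeR called 31 (0.0978%), 24 more negative and 7 more positive. The median standard error of a difference in response was 0.21 on the log2 scale, and 0.16 among genes of at least 20 CPM. For the responses themselves the median standard error was 0.095 in the controls and 0.19 in the E7 clone. By ranks alone, an exact permutation test of 1 clone against 4 cannot go below p = 0.2. Under the definitions used here, 24 genes were kept, meaning called in the same direction in both arms with no difference called (0.152%), 3 were called in the E7 clone alone and 6367 in the controls alone. The kept count ran from 2 without control clone 2 to 356 without clone 1 (132 without clone 3, 40 without clone 4). The sets called in 1 arm alone are undecided, and no gene was called lost, weaker, stronger, reversed or gained.

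**Figure D2:**
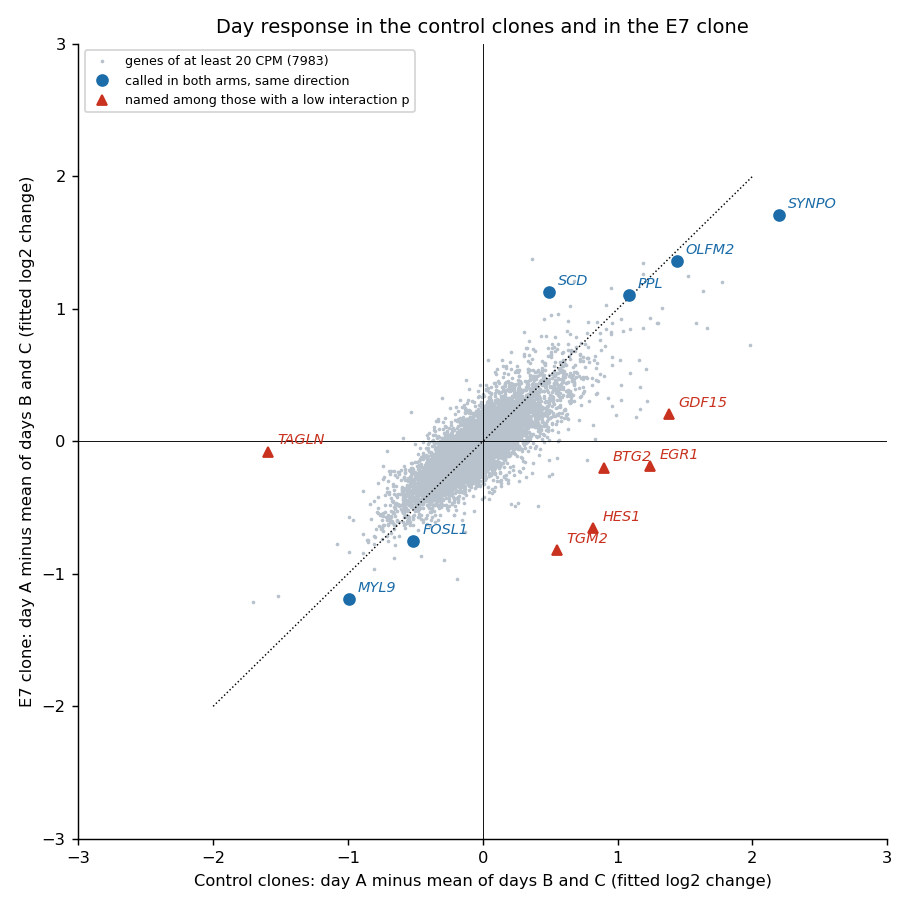
Fitted day response of the control clones (horizontal axis) and of the E7 clone (vertical axis) as log2 changes, day A minus the mean of days B and C, with the dotted line marking equality. Of the marked genes called in both arms, OLFM2, PPL, MYL9 and FOSL1 lie near the line, SYNPO lies under it and SCD above it. GDF15, BTG2, EGR1, HES1 and TGM2 lie far under the line, with TAGLN above it.

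The 24 kept genes comprised 22 that rose on day A (0.140% of genes tested) and 2 that fell (0.0127%). SYNPO, which encodes the actin-associated protein synaptopodin, stood on day A at 12.2, 25.8, 29.2 and 14.3 CPM in control clones 1 to 4 and at 2.89 to 5.73 CPM (median 4.39) in the 8 control libraries of days B and C. In the E7 clone it was at 19.2, 5.93 and 5.82 CPM on days A, B and C. Every day A library was above every library of days B and C, and the fitted log2 changes were 2.20 (SE 0.15) in the controls and 1.71 in the E7 clone (adjusted p 0.032 by edgeR).
OLFM2, which encodes a secreted olfactomedin, rose by 1.44 (SE 0.10) in the controls and 1.36 in the E7 clone. Its E7 levels were 17.0, 6.50 and 6.71 CPM and its control levels 29.9, 31.7, 40.2 and 35.2 CPM on day A against 9.68 to 16.4 CPM on days B and C. PPL, the gene of the desmosome-linked protein periplakin, went from 58.8 and 66.8 CPM on days B and C to 135 CPM on day A in the E7 clone, a log2 change of 1.10 beside 1.08 (SE 0.09) in the controls. TRIM2, KIAA0040 and CEMIP, the last encoding a hyaluronan-binding protein, rose by 1.19, 1.19 and 1.16 in the controls and by 1.35, 1.26 and 1.30 in the E7 clone.
The 2 kept genes that were lower on day A were MYL9 and FOSL1. MYL9, a regulatory light chain of non-muscle and smooth muscle myosin, was at 20.3, 15.4, 22.3 and 16.9 CPM in the controls on day A and at 29.5 to 57.0 CPM on days B and C, and at 12.2, 28.6 and 26.8 CPM in the E7 clone. The groups of days did not overlap, and the log2 change was −0.99 (SE 0.10) in the controls and −1.19 in the E7 clone. FOSL1, an AP-1 subunit, fell by 0.52 (SE 0.06) in the controls and by 0.75 in the E7 clone, where its levels were 139, 214 and 254 CPM.

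Genes of proliferation were lower on day A in the controls, and the E7 medians lay within the range of the 4 controls. Of 44 mitotic genes tested, 39 fell in the controls and none rose, beside 18.9% and 21.6% of all genes tested. The list's median fitted log2 change was −0.50 in the controls and −0.44 in the E7 clone, beside 0.02 in both over all genes tested. KIF23, a kinesin of the central spindle that holds TTTGAAA in its promoter, stood at 138, 129, 121 and 157 CPM in control clones 1 to 4 on day A and at 194 to 231 CPM (median 217) on days B and C. In the E7 clone it was at 167, 260 and 236 CPM. Day A was below days B and C in every clone, by 0.68 (SE 0.08) in the controls, and the E7 response was −0.57. FOXM1, the transcription factor of the mitotic programme, fell by 0.55 (SE 0.06) in the controls and had an E7 response of −0.45. None of the 44 had an unadjusted p under 0.05 by edgeR for a difference between E7 and controls. In 1 of them, CDC25B, the E7 difference lay below all 4 controls, at −0.15 beside −0.07 to 0.15. It lay above all 4 in 0. Over all genes tested the shares were 15.4% and 15.9%.

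Replication genes were also lower on day A in the controls. Of 48 genes of DNA replication and E2F control, 37 fell in the controls, beside 18.9% of all genes tested. The medians were −0.31 in the controls and −0.25 in the E7 clone. RRM2, the small subunit of ribonucleotide reductase, was at 476, 436, 390 and 395 CPM in the controls on day A, at 535 to 753 CPM on days B and C, and at 525, 683 and 755 CPM in the E7 clone. Its response was −0.67 (SE 0.07) in the controls and −0.45 in the E7 clone. EXO1, an exonuclease of mismatch repair, had −0.57 and −0.44. The E7 difference of the helicase subunit MCM6 was −0.02 and lay above all 4 controls, whose differences ran from −0.48 to −0.10, with an unadjusted p of 0.10 by edgeR.

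Most MYC targets and ribosome assembly genes fell on day A in the controls, and none was called in the E7 clone, where the medians were also below 0. Of 42 MYC targets 39 fell in the controls (medians −0.46 in the controls and −0.35 in the E7 clone), and of 57 ribosome biogenesis genes 50 fell (medians −0.44 and −0.35). Over all genes tested, 18.9% fell in the controls and 0.171% were called in the E7 clone. Against day B alone the E7 median of MYC targets was −0.29, above all 4 controls (−0.62 to −0.33). That of ribosome biogenesis was −0.28, also above all 4 (−0.65 to −0.30). Against day C alone both E7 medians were −0.42, within the controls (−0.58 to −0.25 and −0.55 to −0.21). ODC1, the first enzyme of polyamine synthesis and a textbook MYC target, was at 566, 460, 440 and 511 CPM in the controls on day A and at 698 to 857 CPM (median 784) on days B and C. The E7 clone had 487, 670 and 702 CPM. Day A was the lowest in every clone, with a response of −0.66 (SE 0.07) in the controls and −0.49 in the E7 clone. The folate carrier gene SLC19A1 had −0.85 (SE 0.09) and −0.75, and the ribosome assembly factors NIP7 and RRP12 had −0.66 and −0.52 in the controls beside −0.54 and −0.37 in the E7 clone. HK2, a hexokinase also counted among MYC targets, went apart: its differences were −0.52, 0.03, −0.35 and −0.35 in control clones 1 to 4 and 0.33 in the E7 clone (unadjusted p 0.024, adjusted p 1 by edgeR).

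MYC itself lies on 8q24 and was not called across days in either arm. It stood at 481, 386, 380 and 423 CPM in control clones 1 to 4 on day A and at 388 to 466 CPM on days B and C, and at 175, 165 and 222 CPM in the E7 clone on days A, B and C. The E7 libraries were all under the control libraries, so the arms differed in level, while the day response was −0.01 (SE 0.06) in the controls and −0.13 in the E7 clone, a difference of −0.11 (SE 0.13). That difference was 0.16 against day B alone and −0.37 against day C alone. Of 18 genes tested in the 8q24 list, 3 rose and 2 fell in the controls, beside 21.6% and 18.9% of all genes tested. The list's medians were −0.03 in the controls and −0.01 in the E7 clone. PVT1 and CYRIB fell in the controls, by 0.24 and 0.17, and had −0.25 and −0.13 in the E7 clone. LRATD2 and SQLE rose by 0.50 and 0.26 in the controls and had 0.42 and 0.47 in the E7 clone. TMEM65 rose by 0.42 in the controls and had −0.08 in the E7 clone, with the only unadjusted p under 0.05 of the list (0.045). The other members, ASAP1, CASC19, CASC8, MTSS1, NDUFB9, NSMCE2, POU5F1B, RNF139, TATDN1, TRIB1, TRMT12 and WASHC5, were not called in either arm. NSMCE2 and TRIB1 were also lower in level in the E7 clone than in any control library, at 9.50 to 12.1 CPM against at least 32.6 CPM for NSMCE2 and at 153 to 178 CPM against at least 390 CPM for TRIB1. The RNA files hold no measure of the E7 element itself, so the deletion was not checked.

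Protein quality control was split. Proteasome subunits were lower in the controls in 21 of 30 genes (medians −0.29 and −0.22), and heat shock genes in 13 of 20 with 2 higher (−0.31 and −0.23). Over all genes tested, 18.9% were lower and 21.6% higher in the controls. FKBP4, an HSP90 partner, had −0.41 (SE 0.06) in the controls and −0.39 in the E7 clone. The proteasome lid genes PSMD12 and PSMD11 had −0.50 and −0.58 in the controls beside −0.32 and −0.28, and PSMD11 had an unadjusted p of 0.04 for the difference. Of 7 tested genes of metallothioneins and zinc handling 4 fell in the controls, namely the metallothionein genes MT1E, MT1X and MT2A and the zinc exporter gene SLC30A1. The zinc importer gene SLC39A10 rose, by 0.68 (SE 0.10), with 0.68 in the E7 clone. MT1E stood at 39.3, 24.6, 31.6 and 44.7 CPM in the controls on day A against 65.5 to 175 CPM on days B and C, and at 67.3, 153 and 148 CPM in the E7 clone, with responses of −1.52 (SE 0.20) and −1.16.

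Most sterol synthesis genes and a smaller share of fatty acid genes rose on day A in the controls, and both lists had a higher median in the E7 clone than in any control. Of 25 cholesterol synthesis genes 17 rose in the controls and none fell, beside 21.6% and 18.9% of all genes tested. The medians were 0.29 in the controls and 0.47 in the E7 clone. The E7 difference lay above all 4 controls in 12 (15.9% of all genes tested lay above), and 3 were called in the E7 clone (0.171% of all genes tested). DHCR7, which makes the last step of cholesterol synthesis, was at 134, 124, 145 and 139 CPM in the controls on day A and 94.6 to 143 CPM on days B and C, which overlap. The E7 clone had 127 CPM on day A and 74.4 and 86.0 CPM on days B and C. The response was 0.21 (SE 0.06) in the controls and 0.67 in the E7 clone, a difference of 0.47 (SE 0.13, unadjusted p 0.0033, adjusted p 1 by edgeR). LSS and MSMO1, which cyclise and demethylate sterols, rose by 0.56 and 0.55 in the controls and by 0.73 and 0.70 in the E7 clone.
Of 20 fatty acid genes 8 rose and 1 fell in the controls, beside 21.6% and 18.9% of all genes tested. In the E7 clone 3 rose, SCD, LPIN1 and ACSS2, beside 0.159% of all genes tested. SCD, the desaturase that makes oleate, stood at 875, 1153, 1440 and 1089 CPM in the controls on day A and at 598 to 1072 CPM (median 792) on days B and C. In the E7 clone it was at 1372, 644 and 615 CPM, so that its day A level lay within the controls and its levels on days B and C near the lower end of theirs. The response was 0.49 (SE 0.08) in the controls and 1.12 in the E7 clone, above all 4 control differences (0.23 to 0.74), and the difference of 0.63 (SE 0.18) had an unadjusted p of 0.0025 and an adjusted p of 1. The difference was 0.48 against day B alone and 0.82 against day C alone. The ligase gene ACSL3 had 0.43 in the E7 clone and 0.02 in the controls (unadjusted p 0.0093). Against day B alone, the cholesterol list's E7 median of 0.42 lay within the controls (0.26 to 0.43); against day C alone it was 0.37, above 0.09 to 0.34.

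**Figure D3:**
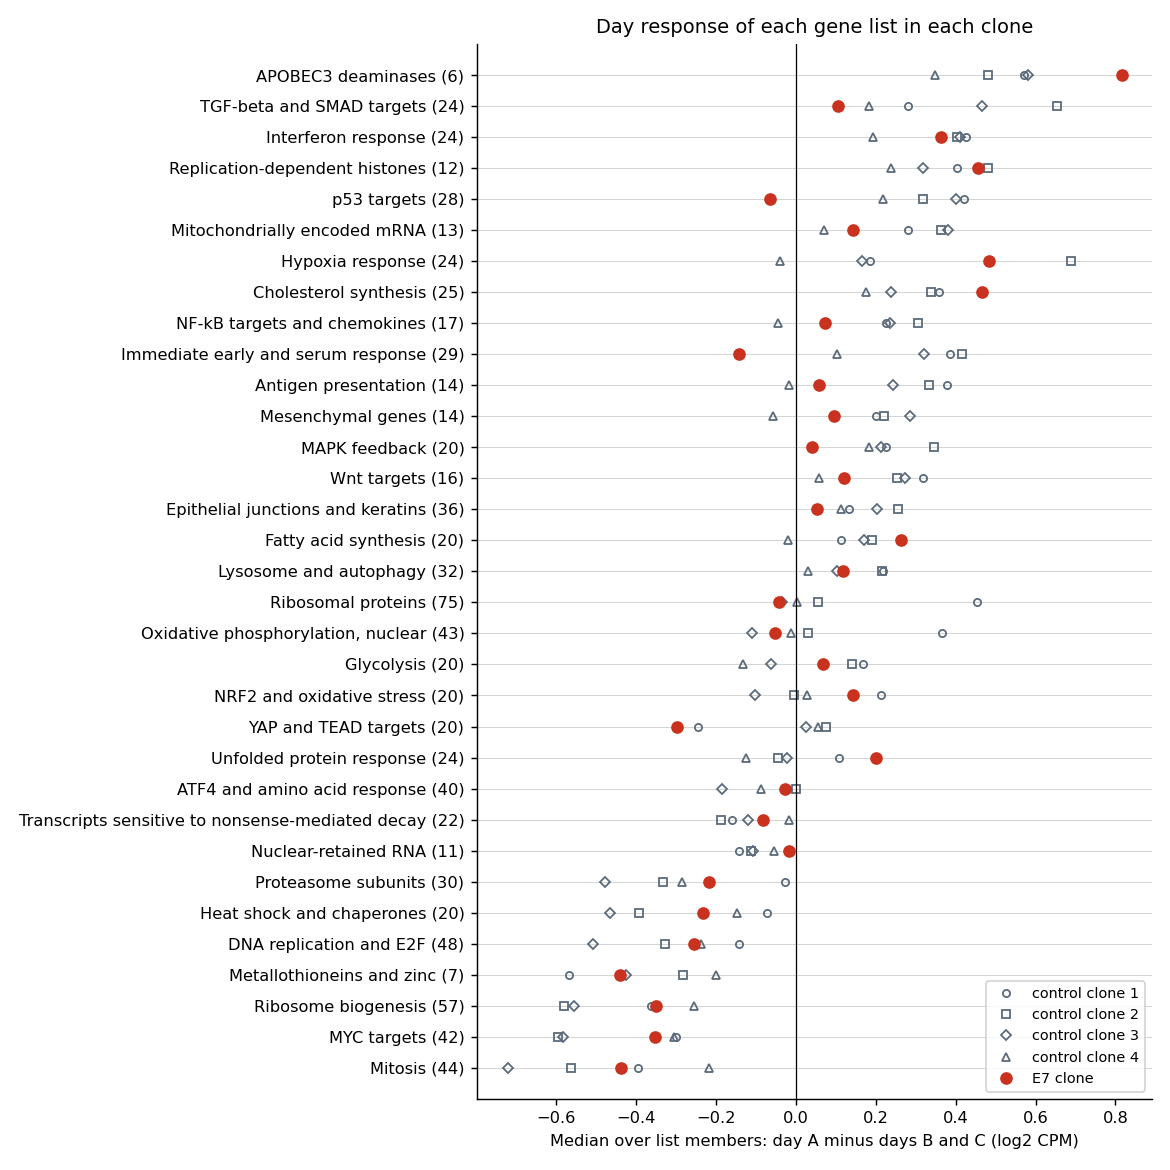
Median day response (log2 CPM, day A minus the mean of days B and C) over the tested members of 33 gene lists, with the number tested in brackets, in each control clone (open grey symbols) and in the E7 clone (red). The E7 medians of mitosis, MYC targets and ribosome biogenesis lie among the controls, those of p53 targets and immediate early genes lie left of all 4, and that of the unfolded protein response lies right of all 4.

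In 14 of 24 genes of the unfolded protein response the E7 day response was above that of every control (15.9% of all genes tested). It was below all 4 controls in none (15.4% of all genes tested). The medians were −0.07 in the controls, where 3 genes rose and 5 fell, and 0.20 in the E7 clone, where none was called. Over all genes tested, 21.6% rose and 18.9% fell in the controls, and 0.171% were called in the E7 clone. By clone the median difference was 0.11, −0.04, −0.02 and −0.12 in controls 1 to 4 and 0.20 in the E7 clone. HSPA5, the main chaperone of the endoplasmic reticulum, whose promoter above carries the ER stress response element, was at 864, 713, 791 and 790 CPM in controls 1 to 4 on day A and at 711 to 1028 CPM (median 892) on days B and C. In the E7 clone it was at 1093, 896 and 767 CPM on days A, B and C. The E7 day A library was above all 12 control libraries, and its libraries of days B and C were within theirs. The control response was −0.11 (SE 0.07) and the E7 response 0.40, a difference of 0.50 (SE 0.15, unadjusted p 0.0047, adjusted p 1 by edgeR).
HERPUD1, which serves the degradation of misfolded proteins, stood at 48.5, 45.1, 38.2 and 37.8 CPM in the controls on day A and at 30.6 to 49.4 CPM on days B and C, and at 53.7, 39.6 and 31.1 CPM in the E7 clone. Its difference between arms was 0.57 (SE 0.18, unadjusted p 0.0051). XBP1, a transcription factor of the pathway, had −0.12 in the controls and 0.29 in the E7 clone, and the chaperone gene HYOU1 had −0.16 and 0.13. The other 2 members with an unadjusted p under 0.05 were DNAJC3 and PDIA4. The list's E7 median was outside the controls against either day: 0.17 against day B, where the controls had −0.13 to 0.00, and 0.21 against day C, where they had −0.08 to 0.13. Genes that ATF4 switches on had medians of −0.10 in the controls and −0.03 in the E7 clone. Of 40 genes 9 were higher and 13 lower in the controls, beside 21.6% and 18.9% of all genes tested. The E7 difference lay above all 4 controls in 11 and below all 4 in 4 (15.9% and 15.4% of all genes tested). Against day B alone the E7 median was 0.17, with 20 genes above all 4 controls and 2 below. Against day C alone it was −0.16, below all 4 controls, with 3 genes above and 13 below.

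Targets of p53 rose on day A in the controls, and the E7 clone lay below them. Of 28 tested, 17 rose and 3 fell in the controls, and none was called in the E7 clone. Over all genes tested, 21.6% rose and 18.9% fell in the controls, and 0.171% were called in the E7 clone. The median response was 0.32 in the controls and −0.06 in the E7 clone, and by clone the median difference was 0.42, 0.32, 0.40 and 0.22 in controls 1 to 4 and −0.06 in the E7 clone. The E7 difference lay below all 4 controls in 18 of the 28 (15.4% of all genes tested lay below) and above all 4 in none. By edgeR 10 had an unadjusted p under 0.05 with a more negative E7 response (1.81% of all genes tested). GDF15, a secreted stress cytokine, stood at 79.8, 75.5, 61.2 and 69.5 CPM in controls 1 to 4 on day A and at 20.3 to 39.7 CPM (median 28.8) on days B and C. In the E7 clone it was at 43.1, 27.8 and 50.4 CPM on days A, B and C. The control days did not overlap, while the E7 day A library lay between its libraries of days B and C. The response was 1.38 (SE 0.09) in the controls and 0.20 in the E7 clone, a difference of −1.18 (SE 0.21) with an unadjusted p of 5.1e-05 and an adjusted p of 0.271 in edgeR and an adjusted p of 0.0042 in DESeq2.
BTG2, an antiproliferative gene, was at 46.7, 47.6, 58.4 and 37.0 CPM in the controls on day A and 18.3 to 31.6 CPM on days B and C, without overlap, and at 21.0, 21.3 and 27.3 CPM in the E7 clone. Its response was 0.90 (SE 0.09) in the controls and −0.20 in the E7 clone, a difference of −1.10 (SE 0.21, adjusted p 0.404 by edgeR and 0.031 by DESeq2). CDKN1A, the cyclin-dependent kinase inhibitor p21, was at 206, 202, 190 and 117 CPM in the controls on day A and 86.3 to 109 CPM on days B and C, and at 144, 125 and 163 CPM in the E7 clone, with responses of 0.83 (SE 0.09) and 0.02 (unadjusted p 0.0019, adjusted p 1 by edgeR). TP53INP1, a stress gene of autophagy and cell death, showed the response in part, with 1.67 (SE 0.13) in the controls and 0.86 in the E7 clone at 23.6, 12.8 and 13.2 CPM. MDM2, the ubiquitin ligase of p53, was not called in the controls (0.13) and had −0.10 in the E7 clone. Against day B alone the list's E7 median was −0.01 and the controls had 0.25 to 0.40, and against day C alone it was −0.17 beside 0.16 to 0.37.

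Immediate early and serum response genes had a positive median in the controls, with the E7 clone below it. Of 29 tested, 14 rose and 2 fell in the controls, and FOSL1 alone was called in the E7 clone, where it fell. Over all genes tested, 21.6% rose and 18.9% fell in the controls, and 0.171% were called in the E7 clone. The median response was 0.26 in the controls and −0.14 in the E7 clone. The E7 difference was below all 4 controls in 21 of 29 (15.4% of all genes tested) and above all 4 in none. In 11 the unadjusted p by edgeR was under 0.05, all more negative in the E7 clone (1.81% of all genes tested). EGR1, a zinc finger transcription factor whose promoter above holds 2 CArG boxes, stood at 58.2, 73.9, 29.0 and 50.6 CPM in controls 1 to 4 on day A and at 15.2 to 27.8 CPM (median 21.4) on days B and C. In the E7 clone it was at 73.0, 62.0 and 111 CPM. All control libraries of day A were above those of days B and C, and the E7 clone was high on all 3 days and highest on day C. The response was 1.24 (SE 0.16) in the controls and −0.19 in the E7 clone, a difference of −1.43 (SE 0.36, unadjusted p 0.0011, adjusted p 0.895 by edgeR). DESeq2 gave it an adjusted p of 0.9999. Without control clone 3, whose difference was 0.28 beside 1.24 to 1.86 in the other 3, the difference was −1.71 with an adjusted p of 0.0073 by edgeR. EGR1 was not called when any other control clone was left out.
JUN and JUNB, subunits of AP-1, rose by 0.53 and 0.49 in the controls and had −0.53 and −0.26 in the E7 clone. JUN was at 22.6, 27.5, 28.8 and 17.0 CPM in the controls on day A and 10.8 to 23.3 CPM on days B and C, which overlap, and at 13.1, 12.4 and 28.5 CPM in the E7 clone. Its E7 level was highest on day C, and the difference of −1.05 (SE 0.26) was −0.77 against day B alone and −1.32 against day C alone. IER3, a stress-induced survival gene, had 0.77 (SE 0.11) in the controls and −0.14 in the E7 clone, at 282, 274 and 355 CPM. For the list, the E7 median was 0.02 against day B alone, beside 0.15 to 0.53 in the controls, and −0.33 against day C alone, beside −0.04 to 0.31.

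Genes of MAP kinase feedback and TGF-beta signalling differed in the same direction. By list median the difference between arms was −0.26 and −0.25, beside −0.31 for p53 targets and −0.46 for immediate early genes. Of 20 feedback genes 12 rose and 3 fell in the controls (medians 0.22 and 0.04 in the E7 clone). For both lists these control counts stand beside 21.6% and 18.9% of all genes tested. The E7 difference lay below all 4 controls in 12 (15.4% of all genes tested). In 5 the unadjusted p by edgeR was under 0.05, all more negative (1.81% of all genes tested). DUSP6, the phosphatase that acts on ERK, was at 116, 179, 78.2 and 111 CPM in the controls on day A, 40.5 to 84.7 CPM on days B and C, and 567, 408 and 542 CPM in the E7 clone. Every E7 library was above every control library, and the response was 0.96 (SE 0.07) in the controls and 0.27 in the E7 clone. DUSP5 stood at 77.3, 81.5 and 144 CPM in the E7 clone, for a difference of −0.72 (SE 0.15, adjusted p 0.458 by edgeR), and SPRY4, an inhibitor of receptor signalling, had 0.82 in the controls and 0.12 in the E7 clone.
Of 24 TGF-beta and SMAD targets 17 rose and 1 fell in the controls (medians 0.45 and 0.10 in the E7 clone). By edgeR 6 had an unadjusted p under 0.05, all more negative in the E7 clone (1.81% of all genes tested). PMEPA1, an inhibitor of SMAD signalling, stood at 1.30, 1.67, 3.80 and 0.997 CPM in control clones 1 to 4 on day A and at 0.156 to 1.68 CPM on days B and C, which overlap, and at 5.84, 9.08 and 10.0 CPM in the E7 clone. Every E7 library was above every control library and day A was its lowest, with responses of 1.24 (SE 0.29) and −0.71. The difference was −1.95 (SE 0.45, unadjusted p 0.00061, adjusted p 0.646 by edgeR and 0.9999 by DESeq2). The control response rests on few counts, and control clone 4 was at −0.43 against day B alone and 1.30 against day C alone. SMAD7, the inhibitory SMAD, was at 8.97, 9.23, 12.0 and 10.9 CPM in the controls on day A and 5.94 to 12.6 CPM on days B and C, and at 0.863, 2.07 and 2.06 CPM in the E7 clone. Here every E7 library was below every control library, and the difference of −1.57 (SE 0.43, unadjusted p 0.0024, adjusted p 1 by edgeR) rests on few counts in the E7 clone. Inhibitors of differentiation ID2 and ID3 rose by 1.13 and 1.02 in the controls and had 0.19 and 0.61 in the E7 clone. Against day B alone neither list's E7 median was outside the controls (0.12 beside 0.07 to 0.40 for feedback genes, 0.22 beside 0.18 to 0.64 for TGF-beta targets). Against day C alone both were below all 4 controls (−0.19 beside 0.11 to 0.27 for feedback genes, −0.04 beside 0.18 to 0.55 for TGF-beta targets).

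Together the p53, immediate early, MAP kinase feedback and TGF-beta lists held 96 distinct tested genes, a pooling chosen after the values were seen. Of these, 29 had an unadjusted p under 0.05 with a more negative E7 response and 0 with a more positive one, against 1.81% and 1.70% of all genes tested, and no gene was called after adjustment. Of the 57 members that rose in the controls, 68.4% had an E7 difference below all 4 controls, against 30.7% of all 3405 genes that rose, and 29.8% had one at or below 0, against 7.46%. The levels from which these genes started differed by gene. In 19 of the 57 the E7 libraries of days B and C were both above every control library of those days, as for EGR1, DUSP6 and IER3, and in 12 also above every control library of day A. In 10 both were below every control library of days B and C, and the other members overlapped. How many of all genes tested lay apart in this way was not counted, so these counts are not read as a trait of the 4 lists. The part of these starting levels in the day response was not tested.

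**Figure D4:**
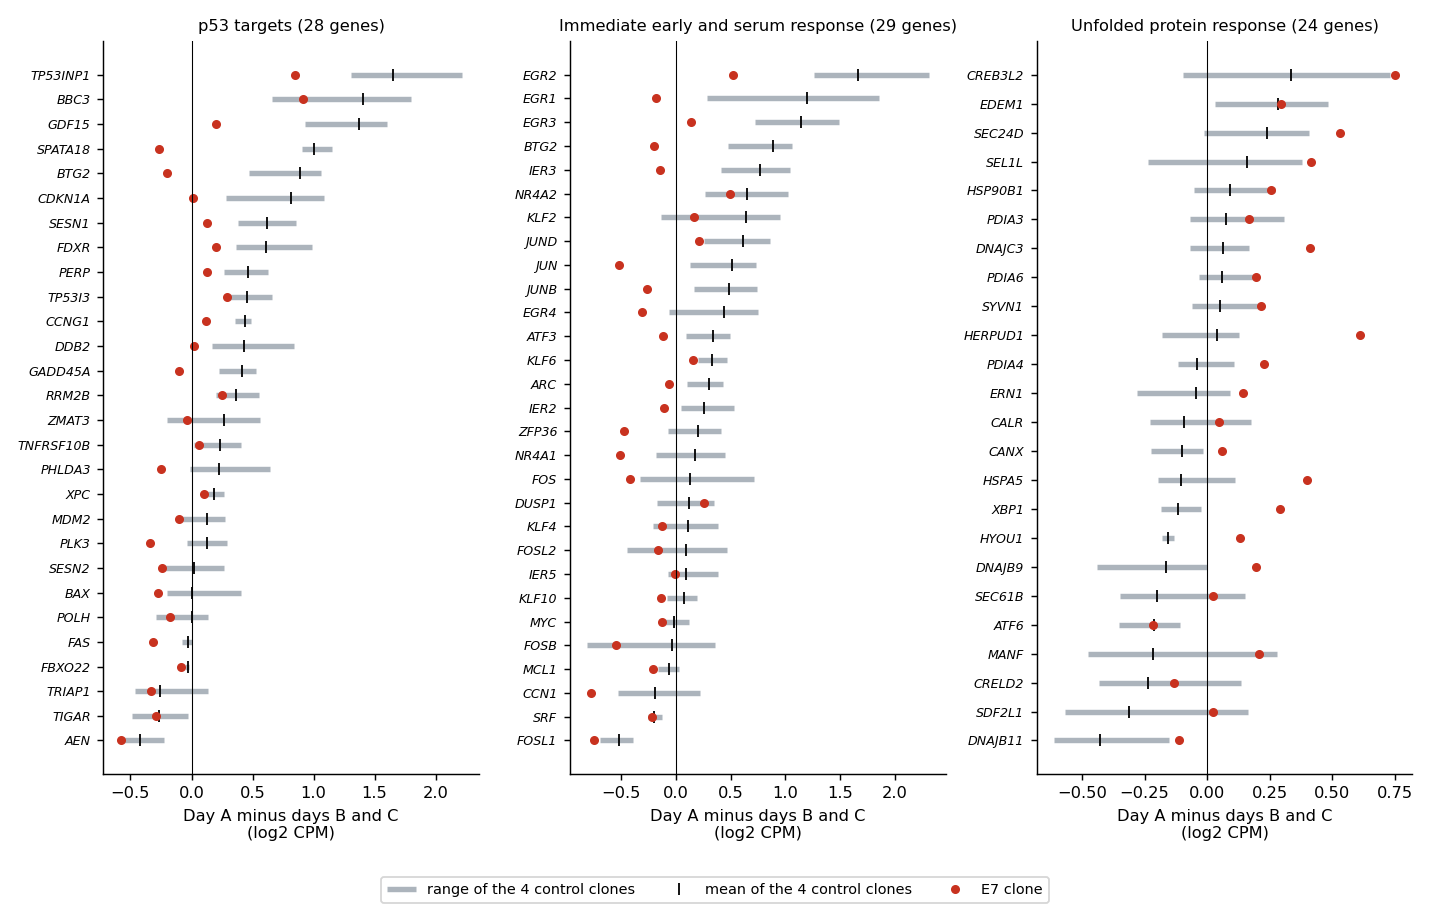
Day response (log2 CPM, day A minus the mean of days B and C) of each tested member of 3 gene lists, with grey bars for the range of the 4 control clones, ticks for their mean and red points for the E7 clone. Red points lie left of the grey bar in 18 of 28 p53 targets and 21 of 29 immediate early genes, and right of it in 14 of 24 unfolded protein response genes.

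**Figure D5:**
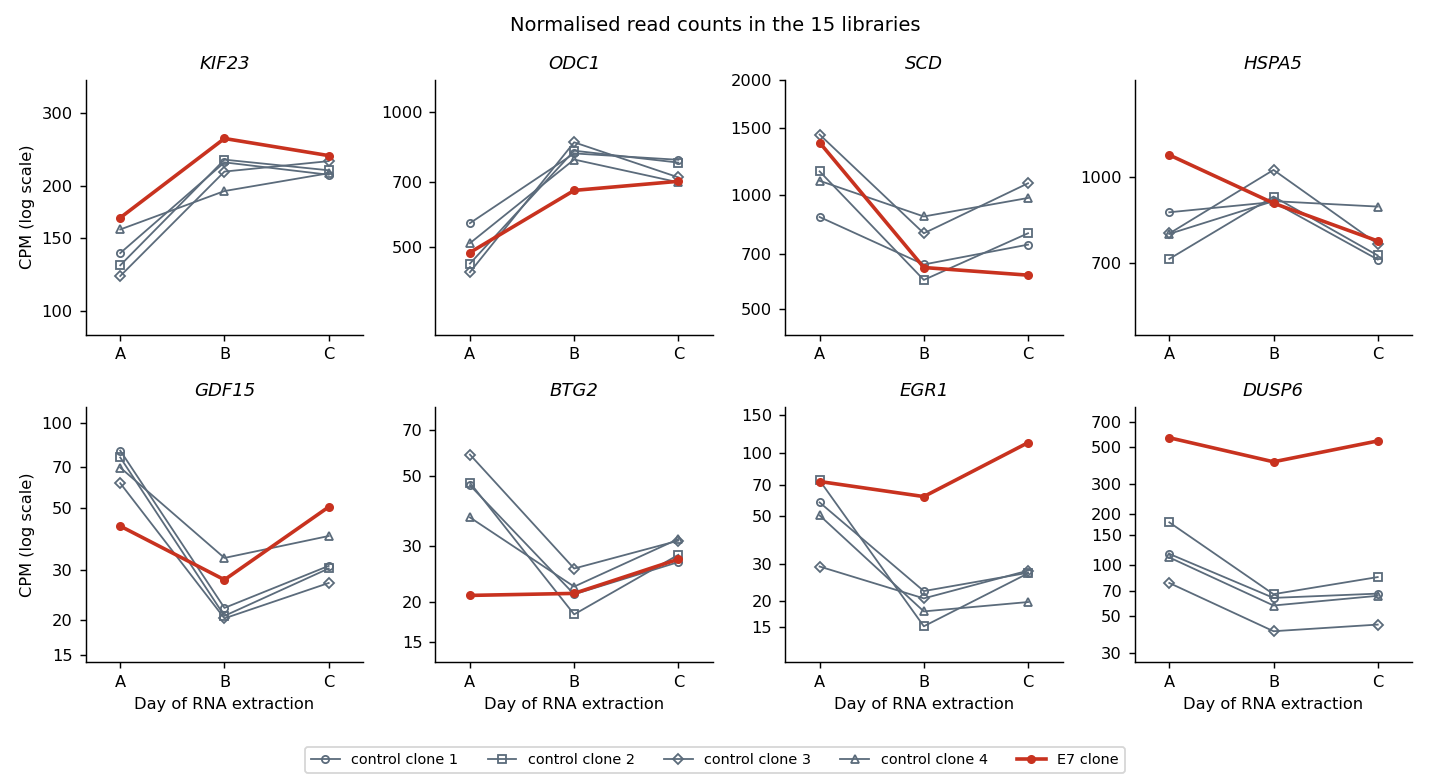
CPM on a log axis in the 15 libraries of 8 genes by day of RNA extraction, 1 line per clone (grey controls, red E7). KIF23 and ODC1 are lowest on day A and SCD is highest on day A in every clone; GDF15, BTG2, EGR1 and DUSP6 peak on day A in each control, while BTG2 in the E7 clone runs from 21.0 to 27.3 CPM.

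Other signalling lists gave smaller or clone-dependent differences. Their counts of genes that rose or fell in the controls stand beside 21.6% and 18.9% of all genes tested. YAP and TEAD targets had medians of −0.03 in the controls and −0.30 in the E7 clone, but control clone 1 was at −0.25, and of 20 genes 3 rose and 5 fell in the controls. Among them, TGM2, a transglutaminase, stood at 14.6, 17.3, 21.7 and 14.7 CPM in the controls on day A and 7.89 to 13.5 CPM on days B and C, and at 44.0, 58.7 and 102 CPM in the E7 clone. Controls were higher on day A without overlap and the E7 clone lowest on day A, with responses of 0.55 (SE 0.11) and −0.82 and a difference of −1.37 (SE 0.23, adjusted p 0.271 by edgeR and 0.0027 by DESeq2). F3, the tissue factor gene, fell by 0.28 in the controls and had −0.89 in the E7 clone (unadjusted p 0.0088). HES1, a Notch target repressor that is in none of the lists, stood at 25.0, 25.3, 22.7 and 26.8 CPM in the controls on day A and at 10.9 to 23.2 CPM on days B and C, and at 18.1, 27.4 and 29.5 CPM in the E7 clone. The control days overlapped narrowly, the E7 clone was lowest on day A, and the difference was −1.47 (SE 0.27, adjusted p 0.271 by edgeR and 0.0042 by DESeq2). Of 16 Wnt targets 8 rose and 1 fell (medians 0.22 and 0.12), NOTUM among them with 1.27 (SE 0.15) in the controls and 0.47 in the E7 clone. Of 17 NF-kB targets and chemokines 4 rose and 2 fell (0.26 and 0.07). IL18, an epithelial cytokine that is also in none of the lists, was at 91.8, 84.5, 105 and 55.7 CPM in the controls on day A and 30.0 to 46.6 CPM on days B and C, and at 56.8, 48.9 and 47.0 CPM in the E7 clone, with a difference of −0.93 (SE 0.19, adjusted p 0.458 by edgeR and 0.041 by DESeq2).

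Interferon genes had a positive median day response in the controls, and the E7 median lay among the controls. Over all genes tested, 21.6% rose and 18.9% fell in the controls, and 0.159% rose in the E7 clone. Of 24 interferon genes 12 rose and 2 fell in the controls (medians 0.45 and 0.42), IFIT1 with 0.91 (SE 0.14) in the controls and 0.58 in the E7 clone. Of 6 APOBEC3 cytidine deaminases 4 rose in the controls and 3 in the E7 clone (medians 0.65 and 0.84). APOBEC3F stood at 10.3, 10.9, 10.8 and 10.4 CPM in the controls on day A and 4.08 to 7.20 CPM on days B and C, and at 86.8, 38.6 and 38.1 CPM in the E7 clone. Day A was highest in every clone, with responses of 0.95 (SE 0.10) and 1.18, although all E7 levels were above all control levels. APOBEC3G, at 227, 102 and 94.1 CPM in the E7 clone and at most 0.997 CPM in any control library, rose by 1.21 in the E7 clone (adjusted p 0.0011 by edgeR). Its control response of 0.68 (SE 0.29) was not called, and counts so low leave that response uncertain. The other 2 genes called in the E7 clone alone were CLDN2, a pore-forming claudin (7.64, 2.50 and 1.34 CPM in the E7 clone and at most 1.40 CPM in the controls), and the transcription factor gene FOXQ1 (5.78, 0.500 and 1.07 CPM, and at most 0.287 CPM in the controls). Antigen presentation genes rose in 8 of 14 and fell in 1 (0.24 and 0.06).

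Metabolic and organelle lists gave the following values, with the control median first. Over all genes tested, 21.6% rose and 18.9% fell in the controls. Of 24 hypoxia genes 9 rose and 1 fell (medians 0.29 and 0.49, and by clone 0.19, 0.69, 0.17 and −0.04 in controls 1 to 4 and 0.48 in the E7 clone), with NDRG1 at 1.33 (SE 0.16) in the controls and 1.01 in the E7 clone. Glycolysis genes had medians of 0.02 and 0.07, with 3 of 20 higher and 2 lower. Of 20 NRF2 genes 8 rose and 4 fell (0.01 and 0.14); GCLM, a subunit of the glutathione synthesis enzyme, had −0.83 (SE 0.07) and −0.58. Of 32 lysosome and autophagy genes 14 rose and 6 fell (0.14 and 0.12). Ribosomal protein genes rose in 12 of 75 (0.12 and −0.04). The E7 difference was below all 4 controls in 40 (15.4% of all genes tested), in 5 against day B alone and in 47 against day C alone. By clone, however, the medians were 0.45 in control clone 1, 0.06, −0.03 and 0.00 in clones 2 to 4 and −0.04 in the E7 clone. Nuclear genes of oxidative phosphorylation, of which 7 of 43 rose and 1 fell, were likewise at 0.37 in control clone 1 and at −0.11 to 0.03 in the other controls and −0.05 in the E7 clone. Mitochondrially encoded mRNAs rose in 9 of 13 and fell in 1 (0.31 and 0.14).

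Epithelial junction and keratin genes rose in 15 of 36 and fell in 4 (0.17 and 0.05), with TJP3, a tight junction scaffold, at 1.58 (SE 0.12) in the controls and 0.90 in the E7 clone, and KRT18 at −0.15 and −0.60. Mesenchymal genes rose in 4 of 14 and fell in 3 (0.24 and 0.10), beside 21.6% and 18.9% of all genes tested. TAGLN, an actin-binding protein of smooth muscle, stood at 10.8, 7.22, 8.46 and 8.07 CPM in the controls on day A and at 19.3 to 35.0 CPM on days B and C. In the E7 clone it was low on all days, at 3.85, 4.50 and 3.67 CPM, so that its response of −1.59 (SE 0.11) in the controls was −0.08 there (adjusted p of the difference 0.458 by edgeR and 0.041 by DESeq2). Replication-dependent histones rose in 4 of 12 (0.41 and 0.53). Nuclear-retained RNAs fell in 4 of 11 (−0.11 and −0.02), and transcripts sensitive to nonsense-mediated decay fell in 10 of 22 and rose in 1 (−0.10 and −0.08). Among the marker lists, colorectal identity genes had medians of −0.13 and −0.15 and HEK293 markers of 0.14 and 0.15.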

How the data were processed

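RNA from 5 HCT116 clones on 3 days was sequenced single-end from 1 ug of total RNA, per the labels' protocols. The authors deposited raw read counts per Ensembl gene for each library. The submitters' processing notes name, without roles, hg19 as the build, HTSeq 0.6.1, TopHat2, bedtools, Partek 3, BWA 0.6.2, bcl2fastq and CASAVA. The sources used here do not state a strand setting, so overlapping and antisense genes cannot be told apart, and counts of near-identical gene copies (metallothioneins, histones, APOBEC3 genes) are uncertain. Rows that name no gene were left out of library sizes.

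Symbols came from NCBI tables (51996 of 57820 genes). Counts were fitted with edgeR 4.0.16 in R 4.3.3 (TMM, filterByExpr with a minimum count of 10, quasi-likelihood test, Benjamini-Hochberg over 15767 genes, threshold 0.05) with terms for clone, day and E7 clone by day, over 15 libraries and 6 residual degrees of freedom. The lone E7 clone was taken to have the spread of the controls, so p-values rest on the spread among the control clones; the 3 libraries of a clone are not labelled as separate cultures. Log2 CPM used a prior count of 2. DESeq2 1.42.0 and limma 3.58.1 served as alternatives. The same clone was sampled on each day, so clone was a block; deviations of a control clone from the day mean correlated between days at −0.06 to 0.45 across genes. Fits were tested on simulated data.

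Among genes that averaged at least 5 CPM, those selected were, for each list, the 2 with the lowest p for the difference and the 2 with the lowest for the control response. Not all of the selected genes are given in the text. The kept genes with the largest smaller response were named under the same limit. The 8q24 members, and further genes named after their values were seen, were not held to that limit. Some of them, such as CLDN2 and FOXQ1, averaged less. The members and lists were chosen with earlier results of these data known. Promoter windows were RefSeq's, searched with Python 3.11.15. ChIP-seq, 4C-seq and HEK293 samples were not used here.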

Additional observations from a re-analysis of the deposited data

Results flagged for a closer look

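In 14 of 191 sets of 4 control differences looked at (named genes and list medians, day A minus the mean of days B and C, log2 CPM), 1 control clone lay far from the other 3. Chance marks about 1 set in 20. The clone that stood apart was control clone 1 in 8 sets, control clone 4 in 4 and control clone 2 in 2.

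Control clone 1 differed in HSPA5 (0.11, others −0.20 to −0.16), OAS3 (−0.48, others −0.22 to −0.18), NDUFB9 (0.27, others −0.18 to −0.11) and ESAM (0.91, others 0.12 to 0.18). It also differed in FOXQ1 (0.048, others 0.81 to 0.95), WASHC5 (−0.33, others −0.03 to 0.0013), the YAP and TEAD list median (−0.25, others 0.02 to 0.08) and the 8q24 list median (0.072, others −0.03 to −0.02).

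Control clone 4 differed in HERPUD1 (−0.18, others 0.09 to 0.13), BTG2 (0.47, others 0.97 to 1.06), LSS (0.32, others 0.61 to 0.67) and the interferon list median (0.19, others 0.40 to 0.43). Control clone 2 differed in ACSL3 (0.22, others −0.07 to −0.03) and DUSP6 (1.24, others 0.82 to 0.88). The E7 differences of HSPA5 (0.40), HERPUD1 (0.61) and ACSL3 (0.43) lay above all 4 controls, and those of BTG2 (−0.20) and DUSP6 (0.27) below all 4.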

How the results depend on the processing

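Genes called for a difference in day response between the E7 clone and the controls (0 in edgeR) numbered 31 without a filter on low counts, 6 in DESeq2 and 6 without day B; they ranged from 0 to 2 when 1 control clone was left out (2 without clone 1, 1 without clone 3). The control response (6391 genes) came to 4076 without day C and 2891 with 1 difference per clone, and to 3493 to 6680 with a clone left out, the lowest without clone 2. The E7 response (27 genes) came to 539 without the filter, 109 in DESeq2, 2 in limma-voom, 0 without day C, 112 without day B, 0 with 1 difference per clone, and 3 (without clone 2) to 375 (without clone 1) with a clone left out; without clone 3 it was 148 and without clone 4 it was 43. Without the day C library of control clone 1, an alternative chosen after seeing the data, it was 13. Without the replicate block (clone as a paired term) the counts were 5142 for the control response, 0 for E7 and 0 for the difference. Kept genes (24) came to 495, 103, 2, 0, 100 and 0 under the same settings, to 10 without that library, to 0 without the block, and to 2 to 356 with a clone left out. Lost genes came to 19 without the filter, 5 in DESeq2 and 4 without day B (0 to 1 with a clone left out), reversed to 3, 1 and 2 (0 to 1), and weaker, stronger and gained to 2, 2 and 1 without the filter. The cause was not tested. The control response of HMGCS1 was −0.0029 without day B and 0.16 with all 3 days. In all, 31 genes were called in any alternative, 24 with a more negative and 7 with a more positive E7 response, and 10 in 2 or more. Of 4220 values of the 151 named genes, 84 took another sign with no call in either fit. Depth limits genes of few counts: the control level of APOBEC3G, CLDN2 and FOXQ1 was near or under 1 CPM.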

Other observations

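With the exception of SRSF1 outside the lists, several genes were called for a difference in day response in edgeR without a filter on low counts, and are given here with their values from the filtered fit, in which none was called; they were chosen after their values were seen. GPRC5A, an orphan receptor of epithelia, stood at 234, 316, 355 and 185 CPM in control clones 1 to 4 on day A, at 104 to 152 CPM on days B and C, and at 705, 513 and 547 CPM in the E7 clone. Every E7 library was above every control library, and the response was 1.17 (SE 0.09) in the controls and 0.41 in the E7 clone. ZFP36L2, an RNA-binding protein that promotes mRNA decay, had 0.41 (SE 0.10) in the controls and −0.49 in the E7 clone, where it was at 38.6, 50.2 and 58.1 CPM. HTR7, a serotonin receptor gene, was at 47.9, 36.6, 69.4 and 48.3 CPM in the controls on day A and fell there by 0.54 (SE 0.07), whereas the E7 clone had 56.6, 52.6 and 44.7 CPM and a response of 0.22. SRSF1, a splicing factor gene that is also in the list of transcripts sensitive to nonsense-mediated decay, fell by 0.59 (SE 0.06) in the controls and had 0.03 in the E7 clone, at 483, 423 and 532 CPM.

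CYP24A1, the vitamin D hydroxylase gene, rose by 1.99 (SE 0.13) in the controls and had 0.73 in the E7 clone, at 159, 94.2 and 98.3 CPM beside 80.3, 84.5, 113 and 17.7 CPM in the controls on day A.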
